A study of Mus musculus with 2 samples.

Results

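C-type lectin receptors of myeloid cells were compared between macrophages that live in the mouse peritoneal cavity and macrophages drawn there by thioglycollate. The set was a list of 10 genes, and the rule that picked their probe sets used no measured value: Clec4n, Clec4d, Clec4e, Clec7a, Clec10a, Mrc1, Clec12a, Clec5a, Cd209a and Clec4a2. The list itself was chosen with earlier results of these data known. Every probe set whose annotation names 1 of these genes and no other was used, which gave 12 probe sets for 9 of the 10 genes among 18193 genes so named on the array. Clec12a had no such probe set and was not analysed here.

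Both groups came from C57BL/6J mice aged 8 weeks, with no allele or other agent named in the labels. The resident group was untreated, and the elicited group received 1 mL of 3% thioglycollate into the peritoneal cavity 3 days before collection. Each group was 1 Affymetrix array, so the differences below have no replicate check and no test. How many animals stand behind each array is not stated in those labels. Cells were enriched by letting them adhere for 2 h per the labels' protocols, whereas the series description speaks of overnight culture.

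C-type lectin receptors are surface proteins with a fold that binds sugars or lipids of microbes and of damaged cells. Some of them signal through an activating motif, either their own or that of the partner chains Fcer1g and Tyrobp (DAP12), to the kinase Syk and then to Card9, Bcl10 and Malt1. Others carry an inhibitory motif that recruits phosphatases such as Ptpn6, and a further group takes up glycosylated ligands for degradation. Macrophages use the activating members to sense fungi and mycobacteria.

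The receptors did not move as a group. Clec4n and Clec4e, which encode the activating receptors dectin-2 and Mincle, were 28.3-fold and 14.7-fold lower on the elicited array. Clec5a was 4.90-fold lower and Cd209a at least 9.42-fold lower. Mrc1, the mannose receptor CD206, was 3.96-fold higher and Clec10a, a galactose-type lectin, was 2.62-fold higher. Clec4d, Clec7a and Clec4a2 lay within 2-fold. In the counts given here, lower and higher mean by 2-fold or more on the elicited array. By this measure 4 of 9 measured members were lower, against 11.8% of the 11499 genes above background on either array, and 2 of 9 were higher, against 8.04%. The members' median log2 ratio of elicited over resident was -0.22, beside -0.03 for all those genes.

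Background was taken as a signal of 82.2, the 95th percentile of receptor and keratin-associated families treated here as silent. Lower signals were raised to that floor. All 9 measured members exceeded it in resident cells and 8 did in elicited cells, the exception being Cd209a. The only error that could be measured was the spread between probe sets of the same gene, an SD of 0.48 on the log2 scale over 4465 genes. The ratios of Clec4n, Clec4e, Clec5a, Cd209a, Mrc1 and Clec10a were larger than this spread, and those of Clec4d, Clec7a and Clec4a2 were smaller. This spread does not cover differences between animals or cultures.

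**Figure D1:**
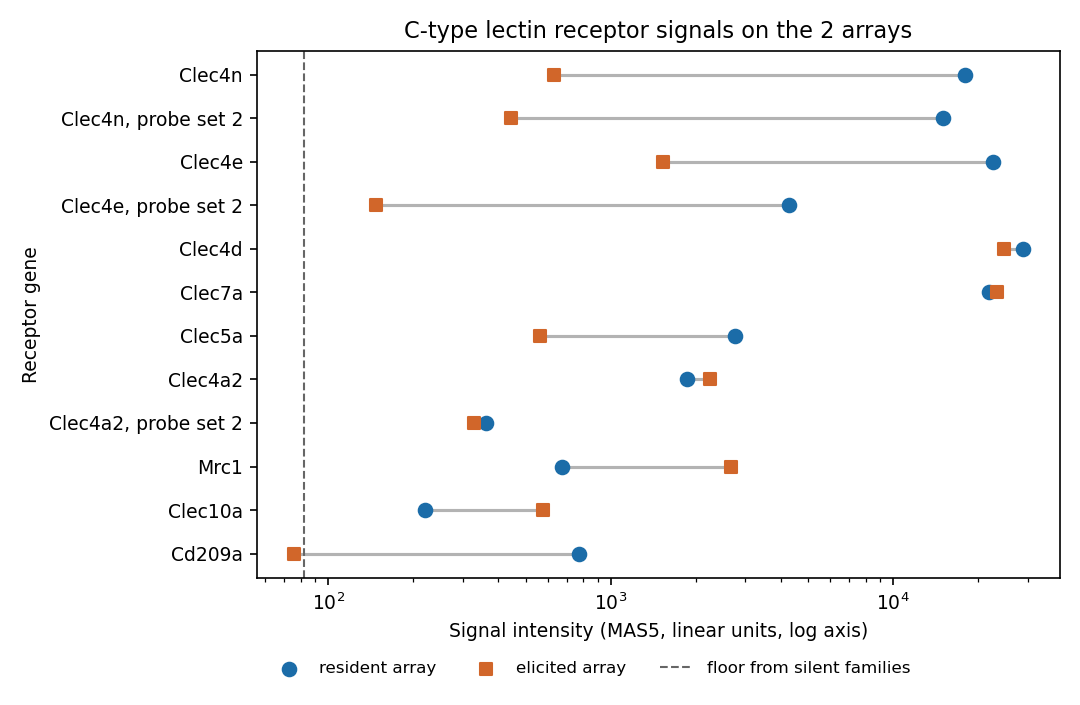
Signal intensity of each probe set (log axis, MAS5 units) for the 9 measured receptor genes on the resident array (circles) and the elicited array (squares), with the floor of 82.2 as a dashed line. Clec4n, Clec4e, Clec5a and Cd209a lie further left on the elicited array, Mrc1 and Clec10a further right, and Clec4d, Clec7a and Clec4a2 nearly coincide.

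The promoters below are shown for neighbouring genes with unlike ratios (Clec4e lower, Clec4d within 2-fold) and for a lower and a higher member elsewhere (Clec5a and Mrc1). Each runs from 250 bases before to 50 bases after the annotated start, in RefSeq GRCm38.p6, on the gene's own strand. Clec4e is at chr6:123289822-123290121 on the minus strand and Clec4d at chr6:123261857-123262156 on the plus strand. Clec5a is at chr6:40585756-40586055 on the minus strand and Mrc1 at chr2:14229164-14229463 on the plus strand. Capitals mark matches on either strand to 4 motifs of factors known in myeloid cells: C/EBP (TTNNGNAA), PU.1 (GAGGAA), AP-1 (TGANTCA) and the kappaB consensus.
Clec4e: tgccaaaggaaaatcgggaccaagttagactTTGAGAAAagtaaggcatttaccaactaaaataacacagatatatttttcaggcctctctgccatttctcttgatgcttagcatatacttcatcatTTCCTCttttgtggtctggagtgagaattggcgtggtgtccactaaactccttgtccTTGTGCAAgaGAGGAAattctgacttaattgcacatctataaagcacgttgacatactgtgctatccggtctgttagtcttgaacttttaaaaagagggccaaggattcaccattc
Clec4d: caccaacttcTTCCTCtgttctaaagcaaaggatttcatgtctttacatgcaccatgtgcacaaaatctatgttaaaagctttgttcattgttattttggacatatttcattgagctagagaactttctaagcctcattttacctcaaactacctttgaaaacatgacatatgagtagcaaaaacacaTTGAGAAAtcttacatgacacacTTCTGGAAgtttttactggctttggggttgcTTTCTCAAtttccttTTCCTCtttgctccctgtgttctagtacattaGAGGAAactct
Clec5a: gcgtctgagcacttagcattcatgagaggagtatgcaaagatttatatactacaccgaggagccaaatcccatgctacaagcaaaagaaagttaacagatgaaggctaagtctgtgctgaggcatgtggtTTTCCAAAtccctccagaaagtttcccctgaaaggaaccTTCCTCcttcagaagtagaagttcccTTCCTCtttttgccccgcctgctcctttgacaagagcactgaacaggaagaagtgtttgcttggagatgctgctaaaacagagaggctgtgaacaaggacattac
Mrc1: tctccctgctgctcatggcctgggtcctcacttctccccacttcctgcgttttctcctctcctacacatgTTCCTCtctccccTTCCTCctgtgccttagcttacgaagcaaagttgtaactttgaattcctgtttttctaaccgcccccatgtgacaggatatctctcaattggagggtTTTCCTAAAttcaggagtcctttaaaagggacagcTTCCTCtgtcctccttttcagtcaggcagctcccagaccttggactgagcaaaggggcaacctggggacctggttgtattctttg

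The C/EBP letters occurred at 2 places in the Clec4e window, 3 in Clec4d, 1 in Clec5a and 2 overlapping places in Mrc1. The PU.1 letters occurred at 2 places in Clec4e, 3 in Clec4d, 2 in Clec5a and 3 in Mrc1. Neither the AP-1 letters nor the kappaB consensus were in these 4 windows. The comparison used 32851 RefSeq promoter windows of that length, with 1 chromosome left out. Of these, 40.7% held the C/EBP letters, 28.3% the PU.1 letters, 7.81% the AP-1 letters and 4.51% the kappaB consensus. Windows were found for 8 of the 10 listed genes, and Clec4n and Clec10a were without one. Outside the 4 windows shown, both windows of Clec7a were without the C/EBP letters, those of Cd209a and Clec4a2 were without the PU.1 letters, and the AP-1 letters were in those of Clec4a2 and Clec12a. The Clec4d window held 0 CpG dinucleotides, that of Clec4e 4 and those of Clec5a and Mrc1 3 each, beside a median of 7 over the 32851 windows.

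Clec4n encodes dectin-2, a receptor for fungal mannans that signals through Fcer1g. Its probe set 1419627_s_at read 17899 in resident and 632 in elicited cells. A further probe set, 1425951_a_at, read 15024 and 445, which is 33.7-fold lower, so the signal was high on the resident array and low on the elicited array in both. The log2 ratio of -4.82 ranked 20 from the lowest among the 11499 genes.

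Clec4e encodes Mincle, which binds mycobacterial cord factor and a nuclear protein released by dying cells. Its probe set 1420330_at read 22479 in resident and 1528 in elicited cells. Its other probe set, 1420331_at, read 4286 and 148. Both were lower on the elicited array, but by 14.7-fold in the first and 29.0-fold in the other, so the size of the difference depends on the probe set used.

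Clec4d encodes MCL, which pairs with Mincle at the surface and supports its expression. Its only probe set, 1420804_s_at, read 28888 in resident and 24726 in elicited cells. The ratio of 1.17-fold lower was, in the deposited values, smaller than the spread between probe sets, and its direction turned once both arrays had the same median over probe sets above the floor (log2 ratio 0.08, against -0.69 with a loess trend removed). The suffix s_at marks probes that can match more than 1 transcript, which holds for this probe set and for the first of Clec4n.

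Clec4n, Clec4d and Clec4e are consecutive protein-coding genes on chromosome 6 in the RefSeq annotation. The log2 ratio of Clec4e fell short of that of its neighbour Clec4d by 3.65 (12.6-fold), and the difference for Clec4n was -4.60 (24.3-fold). A common scale factor leaves these differences as they are. Over all settings tried they ran from -4.63 to -3.45 for Clec4e and from -4.85 to -4.33 for Clec4n. On the far side of Clec4n, Clec4a2, Clec4b1 and Clec4a3 of the same cluster had log2 ratios of 0.26, 0.33 and 0.07. The strong difference within this cluster was therefore seen in Clec4n and Clec4e among the 6 of its genes that had a probe set of their own. Clec4a1, Clec4a4 and Clec4b2 were not analysed here.

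**Figure D2:**
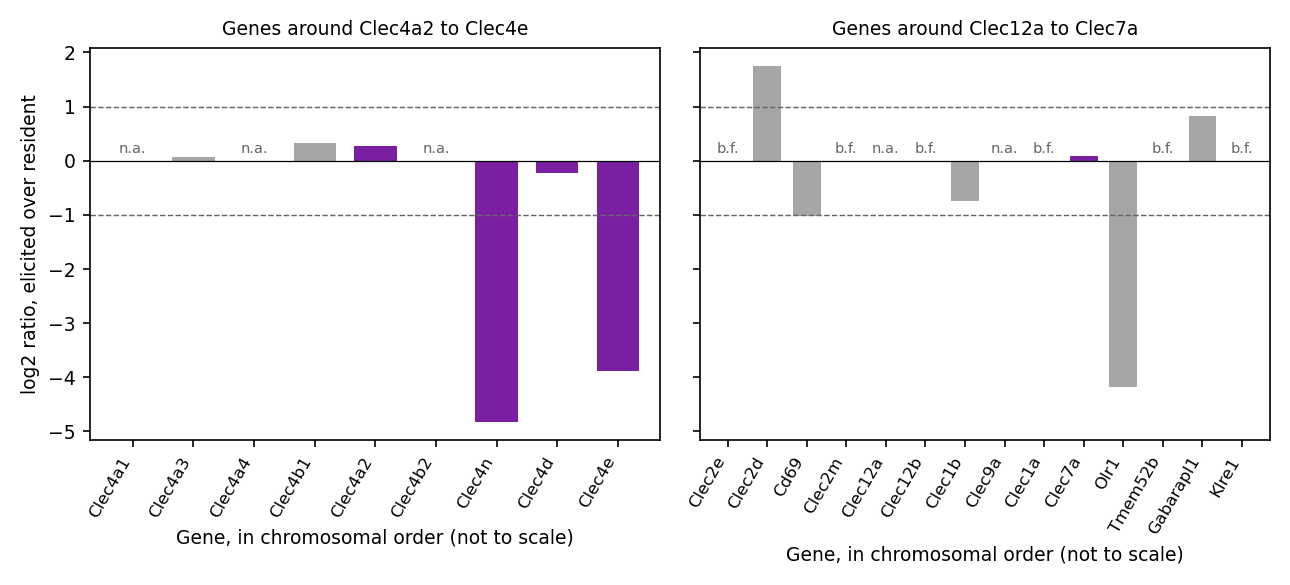
Bars give the log2 ratio of elicited over resident signal for genes in chromosomal order (not to scale) around Clec4a2 to Clec4e (left) and Clec12a to Clec7a (right), with list members in purple, other genes in grey and dashed lines at 2-fold. The letters n.a. mark genes not analysed here and b.f. genes below the floor on both arrays. Clec4n (-4.82) and Clec4e (-3.88) flank Clec4d (-0.22), and Olr1 (-4.18) lies beside Clec7a (0.09).

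Clec7a encodes dectin-1, the receptor for fungal beta-glucan, which carries its own activating motif. Its probe set 1420699_at read 21856 in resident and 23334 in elicited cells. The log2 ratio of 0.09 was within the spread, and ran from -0.35 with a loess trend removed to 0.40 with equal medians. Next to it on the chromosome, Olr1, a lectin-like receptor for oxidized lipoprotein, read 3794 and 209 and was 18.2-fold lower.

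Clec4d and Clec7a gave high signals on both arrays, whose maxima were 48947 and 58028. Whether signals at this height are compressed was not tested.

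Clec5a encodes MDL-1, an activating receptor that signals through Tyrobp. Its probe set 1421366_at read 2751 in resident and 562 in elicited cells. It was thus well above background on both, and the ratio ranked 215 from the lowest of all genes.

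Clec4a2 encodes an inhibitory receptor of the DCIR family, which dendritic cells and B cells also carry. Its probe sets read 1869 and 2244 (1422013_at) and 361 and 329 (1425406_at) on the resident and elicited arrays. They pointed in opposite directions, with log2 ratios of 0.26 and -0.13, both smaller than the spread. A probe set that lists Clec4b1 beside Clec4a2 stood outside the rule and read 2637 and 3273.

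Among the endocytic receptors, Mrc1 takes up mannose-rich and sulphated glycoproteins and is often used as a mark of alternative activation. Its probe set 1450430_at read 674 in resident and 2666 in elicited cells. The log2 ratio of 1.98 ranked 207 from the highest, and lay between 1.68 and 2.29 in all settings tried. Clec10a, or MGL1, binds galactose and N-acetylgalactosamine. Its probe set 1419605_at read 221 in resident and 577 in elicited cells, and its log2 ratio lay between 1.08 and 1.81. Both genes were measured above background on both arrays, each by 1 probe set.

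Cd209a, a relative of human DC-SIGN known from monocyte-derived dendritic cells, went the other way. Its probe set 1426172_a_at read 774 in resident cells and 75.7 in elicited cells, where it did not exceed the floor. With a floor at the 99th percentile of the silent families the bound was a log2 ratio of -2.15. With a separate floor for each array (92.7 resident and 67.9 elicited), chosen after seeing the data, it was above both.

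**Figure D3:**
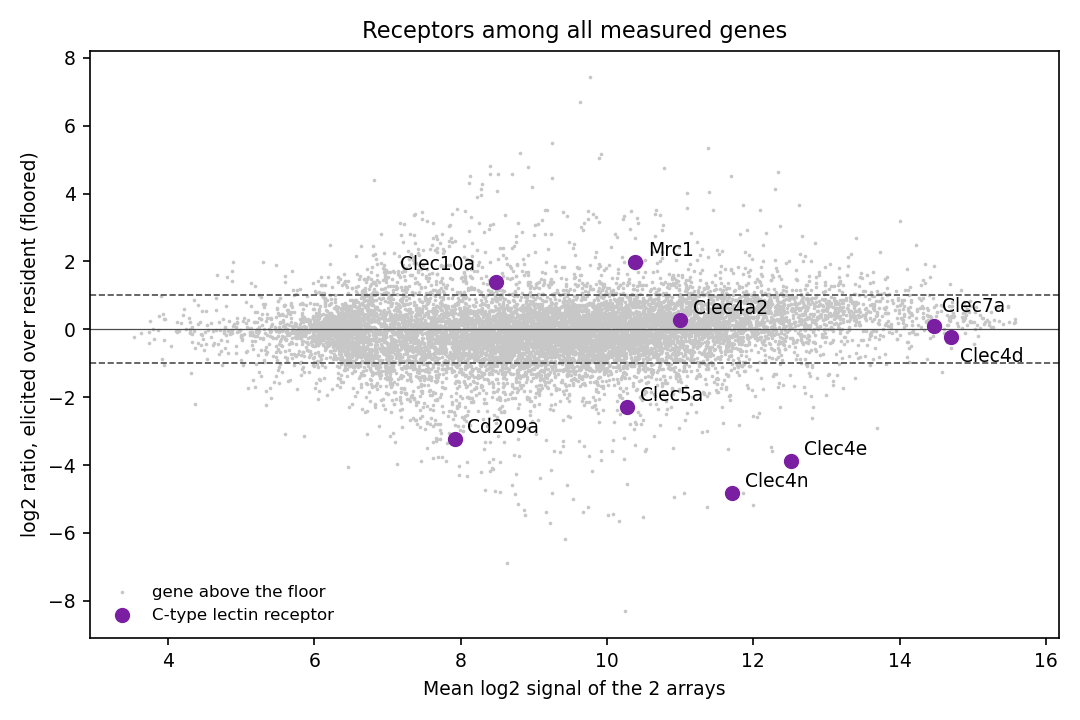
Each grey point is 1 of 11499 genes, with the mean log2 signal of the 2 arrays on the x axis and the log2 ratio of elicited over resident signal, after flooring, on the y axis; purple points are the 9 measured receptors and dashed lines mark 2-fold. Clec4n and Clec4e stand far below the bulk of genes of like signal, and Clec7a and Clec4d lie in it.

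Genes whose pair of log2 signals lay closest to that of a member were sought over the 2 arrays. Nearest to Clec4n were Prg4 (19740 and 697, distance 0.20 in log2 units), Cxcl13 (0.46), Marco (0.57), Tlr2 (0.93) and Mcemp1 (0.95). Nearest to Mrc1 were Cks1b (716 and 2829, distance 0.12), Tpm1 (0.12), Slc39a11 (0.18), Ebpl (0.21) and Prnp (0.22). With 2 arrays this likeness compares 2 values per gene and is a description.

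The signals of cell type markers, those of macrophages and those of other cells, differed between the arrays too. Over all genes, 11.8% were lower and 8.04% higher. Large peritoneal macrophage markers were lower in 7 of 10 measured genes and higher in 1, Cd5l, which read 1897 and 10576 (summed signal over the list 85511 resident and 15894 elicited), while pan-macrophage markers were lower in 2 of 8 and higher in 1 of 8 (141135 and 137236). Of 10 genes that mark dendritic cells, 7 exceeded the floor in resident and 2 in elicited cells. The summed signals of the 10 were 11432 and 6662, of which Cd24a alone gave 8693 and 5719. Of the 7, 4 were lower and 1, Batf3, was higher (252 and 568). Flt3, Itgae and Xcr1 were below it on both, and Zbtb46 read 145 and 37.8. Of the 10 neutrophil markers, 3 of 4 measured were lower (12629 and 8608). The other, S100a8, read 3663 and 4675 (log2 ratio 0.35) and gave most of the elicited sum. Elane, Mpo, Ltf, Ngp, Cxcr2 and S100a9 were below the floor on both arrays. B cell markers were lower in 5 of 7 (16363 and 4766), and mast cell markers in 5 of 5 (2503 and 145). The B cell markers not lower were Cd22 (2269 and 4078, log2 ratio 0.85), which gave most of the elicited sum, and Pax5 (141 and 159, 0.18). Monocyte and small peritoneal macrophage markers were lower in 5 of 9 and higher in 2 (73960 and 42881), the higher ones being S100a4 (4929 and 17103) and Itgax (2598 and 5648). Of 5 measured T cell and NK cell markers, 2 were lower and 1 higher (913 and 471), and of 2 eosinophil markers 1 was higher (543 and 1145). Mesothelial and fibroblast markers were higher in 7 of 10 (670 and 16041). All 10 exceeded the floor in elicited cells and 4 in resident cells. The measured T cell and NK cell genes above it were 5 in resident and 1 in elicited cells. For large peritoneal macrophage genes these numbers were 10 and 6. A gene above the floor on 1 array alone entered these counts through the array where it was high. In such bulk RNA, fewer cells of a type and less RNA per cell cannot be told apart, and the part of these cells in the receptor ratios was not tested.

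Other lectin-like receptors served as a comparison. Of 37 listed, 32 had a probe set of their own and 18 exceeded the floor on either array. Among these 18, 9 were lower, 2 higher and 7 in between (all genes: 11.8%, 8.04% and 80.2%). The median log2 ratio of the 18 was -0.99. Of the 9, Klra2, Fcer2a, Cd209b and Cd69 exceeded the floor on the resident array alone. The number lower was 5 of the 11 whose 2 signals both exceeded the floor (all such genes: 11.1%). It was 6 of 19 with equal medians (all genes: 7.40%) and 11 of 18 with the array's spiked hybridisation controls held equal (18.6%). The lower ones included Olr1, named above, Clec2g (1432 and 95.9, 14.9-fold), the Ly49-family gene Klra2 (776 and 57.0, at least 9.45-fold) and the low-affinity IgE receptor gene Fcer2a (402 and 19.5, at least 4.89-fold), which B cells carry. The 2 probe sets of Fcer2a gave log2 ratios of -2.29 and -0.48 after flooring. Ly75, the endocytic receptor DEC-205, read 47.6 and 390 and was at least 4.75-fold higher. Clec2d, a ligand of an NK cell receptor, read 542 and 1832 and was 3.38-fold higher. Mgl2, the close relative of Clec10a, read 43.4 and 102, so only the elicited array was above the floor.

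The partner chains of the activating receptors were present on both arrays. Fcer1g read 20208 and 26420 (log2 ratio 0.39) and Tyrobp read 32618 and 46349 (0.51). Whether signals at this height are compressed was not tested for these genes either. The kinase Syk read 3515 and 2757, its 4 probe sets giving log2 ratios from -0.70 to -0.14. Card9 was not analysed here. All 3 of these ratios were within 2-fold, in contrast to Clec4n, Clec4e and Clec5a, whose products use those chains. The activating receptor gene Clec4d, whose product pairs with Mincle, was within 2-fold as well (log2 ratio -0.22).

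Of 21 measured adaptors, kinases and transcription factors of the pathway, 4 were lower and 17 in between (all genes: 11.8% and 80.2%). Their median log2 ratio was -0.51. The lower ones were the NF-kappaB subunit genes Relb (1703 and 292, 5.84-fold) and Nfkb2 (850 and 319, 2.66-fold), the Src-family kinase gene Fgr (3185 and 1225, 2.60-fold) and Nfatc1 (1895 and 729, 2.60-fold). Probe sets of Nfkb2 gave log2 ratios from -1.41 to -0.91 and those of Nfatc1 from -1.54 to -0.93, so some lay within 2-fold. Plcg2 and Rela had log2 ratios of -0.80 and -0.78. Of 10 inhibitors of this signalling, 9 were in between (all genes: 80.2%), and their median log2 ratio was -0.39. The phosphatase genes Ptpn6, Ptpn22 and Inpp5d had log2 ratios of -0.87, -0.92 and -0.74, the kinase gene Csk -0.90 and the adaptor gene Dok2 0.67. Cblb, a ubiquitin ligase that limits Syk signalling, read 654 and 1447, but log2 ratios of -0.05 to 1.58 came from its 3 probe sets. With the spiked controls held equal, 7 of the 21 and 4 of the 10 were lower (all genes: 18.6%).

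Cytokine and mediator genes that this pathway can induce also split. Of 17 measured, 6 were lower, 1 higher and 10 in between (all genes: 11.8%, 8.04% and 80.2%). Their median log2 ratio was -0.11. Among the 14 above the floor on both arrays, 3 were lower (all such genes: 11.1%). With the floor at the 99th percentile 4 of 17 were lower (all genes: 10.9%). The neutrophil chemokine gene Cxcl2 read 5040 and 439 (11.5-fold lower) and Il1b read 1358 and 143 (9.48-fold lower). The transcription factor gene Egr3 (813 and 47.4, at least 9.89-fold), Ptgs2 (226 and 71.9, at least 2.75-fold) and Il6 (208 and 15.4, at least 2.53-fold) were lower against the floor. The 2 probe sets of Egr3 gave log2 ratios of -3.31 and 0.0 after flooring. The higher gene was Il1rn, the interleukin-1 receptor antagonist (1106 and 3232, 2.92-fold).

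Mrc1 and Clec10a are known to be induced by interleukin-4, so other genes linked to that cytokine were set beside them. Of 17 measured, 7 were lower, 2 higher and 8 in between (all genes: 11.8%, 8.04% and 80.2%). Their median log2 ratio was -0.72. Of the 7, Ccl24, Ccl22 and Cd163 exceeded the floor on the resident array alone. Among the 11 genes above it on both arrays 4 were lower and 2 higher (all such genes: 11.1% and 7.56%), with a median of -0.20. With a pseudocount of 1 in place of the floor 9 of 17 were lower and 3 higher (all genes: 15.1% and 10.3%), with a median of -1.37. Chil3 (1910 and 5993, 3.14-fold) and the nuclear receptor gene Pparg (85.5 and 2030, 23.7-fold) were higher, though the resident signal of Pparg was under the 92.7 of the silent families on that array. The chemokine gene Ccl24 (5926 and 79.4, at least 72.1-fold), Retnla (10340 and 1736, 5.95-fold), Irf4 (652 and 114, 5.71-fold) and the scavenger receptor gene Cd163 (274 and 6.50, at least 3.34-fold) were lower. The 2 probe sets of Irf4 gave log2 ratios of -2.51 and -1.06. In the settings tried, 2 or 3 genes of this list were higher.

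**Figure D4:**
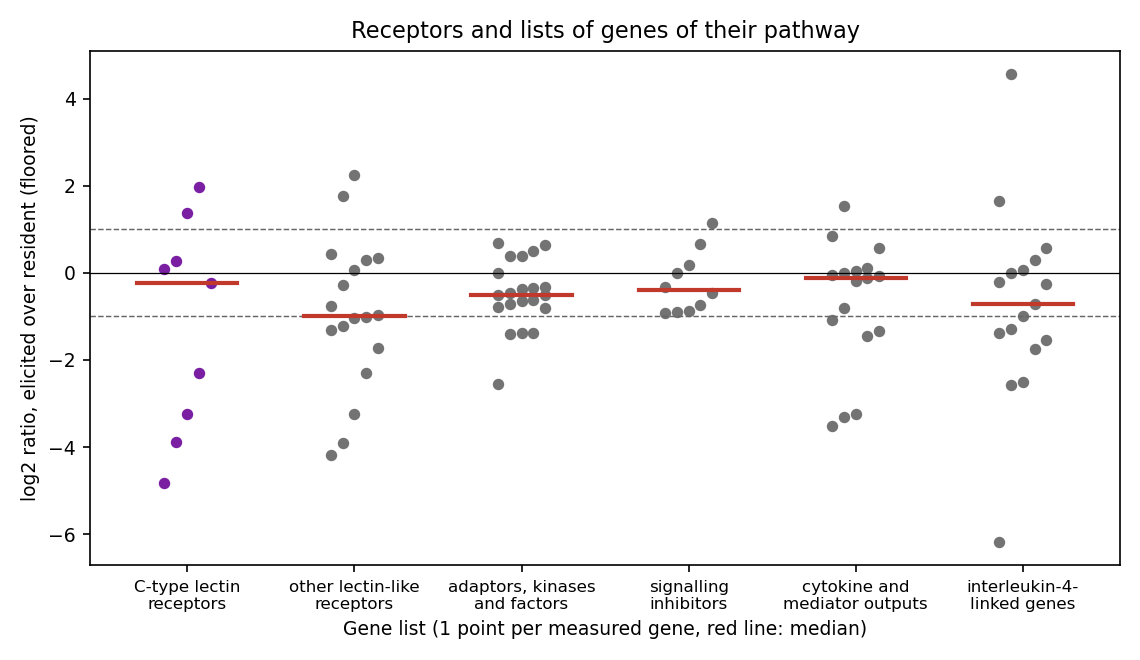
Each point is the log2 ratio of elicited over resident signal of 1 measured gene, for the 9 receptors and 5 lists of genes of their pathway, with the list median as a red line and 2-fold as dashed lines. The receptors spread from -4.82 to 1.98, and the medians of the 5 lists lie between -0.99 and -0.11.

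The direction of most receptor ratios did not depend on how the arrays were scaled. Among all genes past the threshold, the share higher in elicited cells was 40.5% in the deposited values. It became 65.8% after equal-median scaling, 58.2% after quantile normalization and 21.1% when the 9 spiked hybridisation control probe sets, all of them higher in the elicited sample (median 1.24-fold), were held equal. The median log2 ratio of all genes ranged over these scalings from -0.31 to 0.25. The members' counts were 2 higher and 4 lower under each scaling, but Clec4d, Clec7a and Clec4a2 had log2 ratios on both sides of 0.

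**Figure D5:**
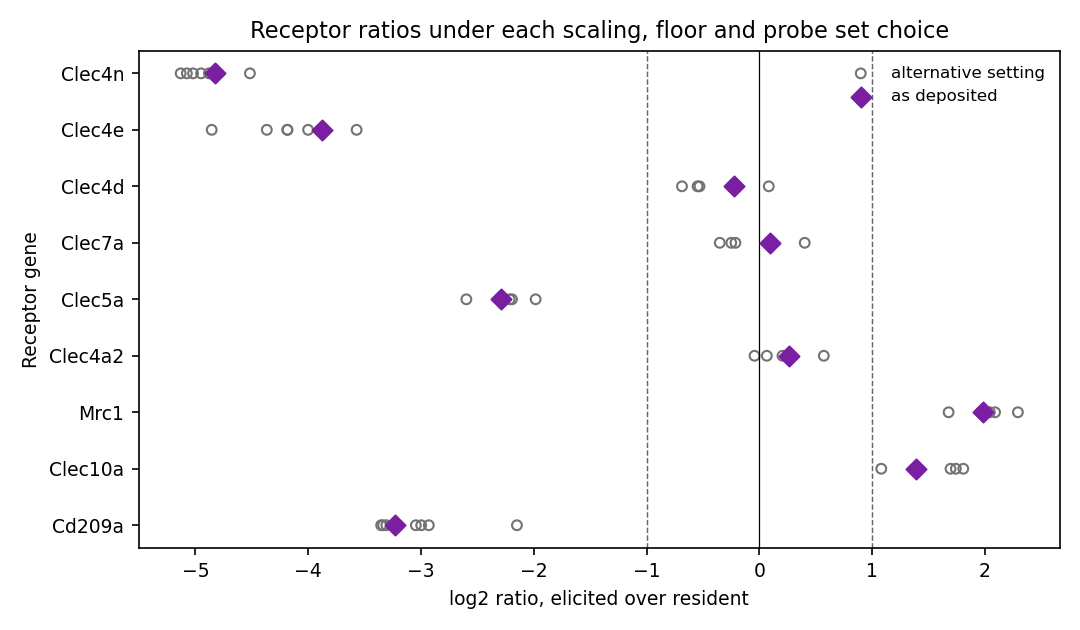
Log2 ratio of elicited over resident signal for each receptor as deposited (diamonds) and under each alternative scaling, floor or probe set choice (open circles), with 2-fold as dashed lines. The circles of Clec4n, Clec4e, Clec5a and Cd209a stay left of the lower line and those of Mrc1 and Clec10a right of the upper one.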

How the data were processed

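RNA was measured on 1 array per group, for 45101 probe sets. The deposited values are linear signal intensities, and per the submitters' processing notes the authors used MAS5. Neither its version nor its scaling target or detection calls are stated there. The mean after leaving out the lowest and highest 2% was 500 on both arrays, and no further normalization was applied.

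Probe sets naming 1 gene (34958) took current symbols by gene ID from RefSeq GRCm38.p6 (34754 matched). A further 932 named several genes and 9211 none listed here. Where a gene had several probe sets, that of highest mean log2 signal stood for it. The floor was the 95th percentile of 252 values of olfactory, vomeronasal, taste receptor and keratin-associated genes. Ratios against it are bounds, written as at least N-fold, and 2-fold was the threshold. No test was possible with 1 array per group. The array number limits the precision.

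The text names all members, up to 6 genes of each pathway list with the largest absolute log2 ratios, the chains Fcer1g and Tyrobp with Syk and Card9, cell type markers that show a list's range, and the 5 genes nearest to the extreme members. Genes named beyond that (Mgl2, Cd209b, Ccl22 and chromosomal neighbours) were chosen after their values were seen. Members and lists were chosen with earlier results of these data known. The calculation was tested on simulated data. Scaling, floor, probe set choice and filter were varied in 9 ways, and 1 more floor was added after seeing the data. Python 3.11.15, numpy 2.4.6, pandas 2.3.3 and statsmodels 0.14.6 were used.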

Additional observations from a re-analysis of the deposited data

How the results depend on the processing

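Counts of 2 higher and 4 lower members held under 9 of the 10 alternatives. With genes above the floor on both arrays, 3 were lower, since Cd209a drops out. The median log2 ratio of the members ran from -0.69 to 0.08, which follows Clec4d. No ratio of a member that was past 2-fold changed sign in the settings tried. Those that moved by more than the probe-set SD were Clec4e (-4.37 with the mean of all probe sets, -4.86 with the probe set of largest ratio) and Cd209a (-2.15 with the 99th percentile floor). The interleukin-4-linked list moved to -1.37 with a pseudocount of 1 and to -0.20 with genes above the floor on both arrays, and the list of cytokine outputs to -0.75 with the largest-ratio probe set. With 1 array per group, no replicate could be left out. No paired analysis was possible because each group has 1 array. Signals near the floor limit Cd209a, Mgl2 and Pparg.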
